A study of Mus musculus with 8 samples.

Results

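The cytosolic heat shock chaperones described here are 10 genes of the HSP70, HSP90 and small heat shock protein systems: Hspa1a, Hspa1b, Hspa8, Hsph1, Dnajb1, Bag3, Hsp90aa1, Hsp90ab1, Hspb1 and Cryab. They were chosen by name with earlier results of these data known, and all 10 were found among the 13227 genes counted in each library. Their mRNA was measured by RNA sequencing in whole hearts of male FVB/N mice, an inbred strain, at 3 months of age. A group of 4 hearts (TG; A, B, C and E) carried a FASTKD1 transgene that the series title describes as specific to the heart, and the other 4 (NTG; A, B, D and E) were of mice without it. FASTKD1 is a mitochondrial protein of the FASTK family of RNA-binding proteins. The promoter that drives the transgene and the number of founder lines are not stated in the labels. Each heart counts as 1 animal, since it has its own letter within a group. Where hearts of a group shared an origin that the labels do not state, the p-values measure only the spread between these samples.

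Chaperones bind proteins that are unfolded or only partly folded and keep them from clumping together. In the cytosol, J proteins hand such clients to HSP70, nucleotide exchange factors make HSP70 let go of them, and HSP90 takes over many of them at a later stage of folding. Small heat shock proteins hold unfolded clients without using ATP and are abundant in cardiac muscle, where desmin and titin are among the proteins they bind. The transcription factor HSF1 raises the mRNA of inducible members such as Hspa1a, Hspa1b and Hsp90aa1 when unfolded protein builds up, while Hspa8 and Hsp90ab1 are the forms that cells make at all times.

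The libraries held 44584359 to 55769859 counts in TG hearts and 45802079 to 50830215 in NTG hearts. Levels below are CPM, counts relative to the library total after scaling by the trimmed mean of M values (TMM). Fastkd1 stood at 8845 to 11520 CPM in the TG hearts, against 26.3 to 33.8 CPM in NTG hearts A, B and E and 192 CPM in NTG heart D. NTG heart D also had 0 counts over 4 Y-linked genes, where the other 7 libraries had 10372 to 15914, so this library goes against its label as a male. TG heart A was high in atrial markers, with 1289 CPM of the atrial light chain gene Myl4, against 1.46 to 104 CPM in the other TG hearts and 1.05 to 174.5 CPM in the NTG hearts. Over 9 atrial marker genes, none of them at 0 in every heart, the summed level was 135 to 3407 CPM in TG hearts and 124 to 761 CPM in NTG hearts. The results below are therefore also given without NTG heart D and TG heart A where that alters a call. Summed markers of cardiomyocytes (10 genes, none at 0) were at 60800 to 65630 CPM in TG hearts and at 75760 to 86930 CPM in NTG hearts, without overlap, while 0 of the 10 passed edgeR's test, 8 had an unadjusted p under 0.05, and DESeq2 called 4 lower, limma-voom 0 and limma-voom with sample weights 3. The 10 markers did not move alike. Their log2 fold changes ran from −0.57 (Pln) to −0.09 (Ttn) and −0.01 (Ryr2, at 1441 CPM in TG hearts and 1447 CPM in NTG hearts). In whole tissue, a lower sum cannot tell apart fewer cells of a type, less RNA per cell and less mRNA of some of the genes.

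In TG hearts the inducible HSP70 genes Hspa1a and Hspa1b and the inducible HSP90 gene Hsp90aa1 rose, by 6.39, 3.62 and 1.60 times. These 3 of 10 members (30.0%) were past the threshold of 0.05 on the adjusted p of edgeR's quasi-likelihood test over 13226 tested genes, of which 1.01% rose. None of the members fell under edgeR, DESeq2 or limma-voom with or without sample weights, and 0 had a negative log2 fold change with an unadjusted p under 0.05, while 0.242% of all genes fell. Hspa1a was under 1 CPM in every NTG heart, and since each gene in the files has its second-highest CPM at 1.0033 or more, it is in the table only through the TG hearts. Of the other 9 members 2 rose, and their median log2 fold change was 0.46. Of all 10, 7 did not pass, among them the constitutive genes Hspa8 and Hsp90ab1. All 4 TG hearts were above all 4 NTG hearts for 5 of the 10 members (4 of the 9 without Hspa1a), against 4.58% of all genes. All 4 were below for 0 members, against 2.8% of all genes. The median log2 fold change, TG over NTG, was 0.50 over the 10 members and 0.01 over all tested genes. Without NTG heart D and TG heart A, 3 members rose (Hspa1a, Hsp90aa1 and Hsph1), where 1.29% of all genes rose and 0.802% fell. With a single heart left out, 1 to 4 members rose, and it was Hspa1a alone without TG heart C, NTG heart A or NTG heart D. Of all tested genes, 103 to 168 rose in these fits. DESeq2 called 5 members higher, adding Hsph1 and Hspb1 to the 3, where it called 1.88% of all genes higher. With limma-voom 2 members rose, Hspa1a and Hsp90aa1, where 1.02% of all genes rose. With sample weights it called 4 higher (Hspa1a, Hsp90aa1, Hsph1 and Hspb1), where 2.87% of all genes rose.

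**Figure D1:**
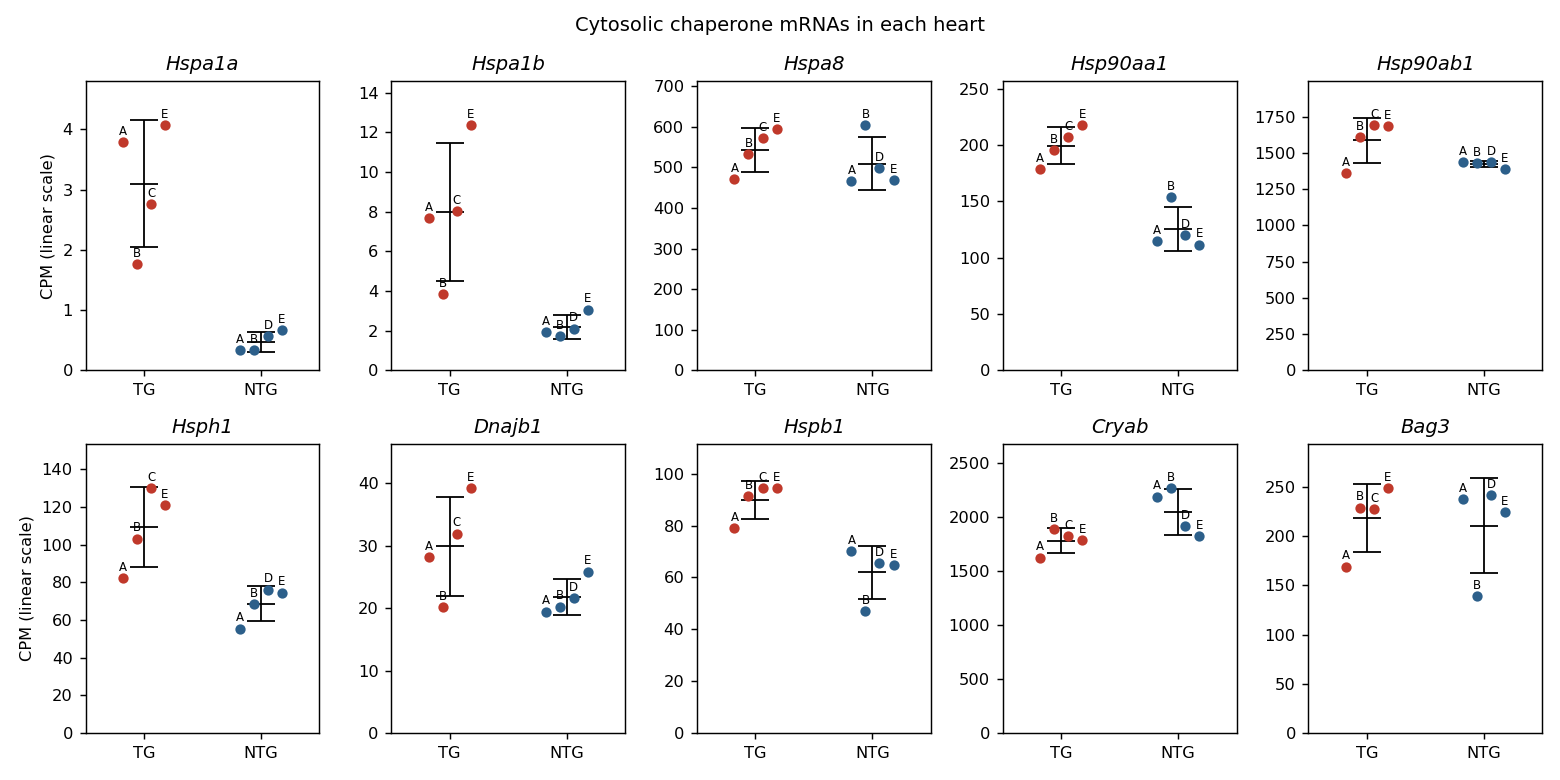
CPM of each of the 10 chaperone genes (linear axis from 0) in the 4 TG and 4 NTG hearts. Each point is a heart with its letter, and the bars are the mean and SD. The groups do not overlap for Hspa1a, Hspa1b, Hsp90aa1, Hsph1 and Hspb1, and they do for the other 5 genes.

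Hspa1a and Hspa1b lie side by side on mouse chromosome 17 and encode nearly the same stress-inducible HSP70 protein, which is scarce in unstressed tissue. Hspa1a (GRCm38 chr17:34969190-34972156, minus strand) was at 3.79, 1.76, 2.76 and 4.07 CPM in TG hearts A, B, C and E, against 0.340, 0.333, 0.562 and 0.666 CPM in NTG hearts A, B, D and E. Every TG heart was above every NTG heart, and the means were 3.09 ± 1.05 CPM in TG hearts and 0.475 ± 0.166 CPM in NTG hearts (SD, n = 4 each). This gives a log2 fold change of 2.67 (SE 0.33, edgeR adjusted p = 0.00197), which is 6.39 times with a 95% interval of 3.83 to 10.6. These are low levels: the counts were 167, 88, 163 and 201 in TG hearts and 15, 13, 31 and 35 in NTG hearts. Counting error alone gives the 88 counts of TG heart B a 95% Poisson interval of 70.6 to 108 and the 13 counts of NTG heart B one of 6.92 to 22.2.

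Hspa1b (GRCm38 chr17:34956436-34959238, minus strand) followed at a somewhat higher level, with 7.70, 3.84, 8.02 and 12.4 CPM in TG hearts A, B, C and E and 1.90, 1.72, 2.101 and 3.06 CPM in NTG hearts A, B, D and E. The groups again did not overlap. The means were 7.98 ± 3.49 CPM in TG hearts and 2.20 ± 0.5998 CPM in NTG hearts (SD, n = 4 each), with a log2 fold change of 1.85 (SE 0.33, edgeR adjusted p = 0.0196). In both groups heart E was the highest and heart B the lowest for both genes. Without NTG heart D and TG heart A, Hspa1a also rose (2.65, adjusted p = 0.00985), while Hspa1b had a log2 fold change of 1.85 and an adjusted p of 0.0595. The call of Hspa1b was also lost without NTG heart A (adjusted p = 0.104), B (0.0645) or D (0.0511) and without TG heart C (0.0575), with log2 fold changes of 1.76 to 1.84. It was lost in limma-voom as well (1.76, adjusted p = 0.0565), and also in limma-voom with sample weights.

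The transcripts of the pair share much sequence. Of the 50-base stretches of the Hspa1a transcript in GENCODE M21, 58.8% also occur in Hspa1b, and 47.1% of its 100-base stretches do, while 0 occur in Hspa8. No label states how the authors' counter treated reads that match both, so the split between the pair is uncertain. Summed as a single feature, they stood at 11.5, 5.60, 10.8 and 16.4 CPM in TG hearts A, B, C and E and at 2.24, 2.05, 2.66 and 3.73 CPM in NTG hearts A, B, D and E. The sum rose by a log2 fold change of 2.04 (SE 0.31, adjusted p = 0.00775 in edgeR refitted over the whole table). Over 564 bases (19.0% of its exon length) Hspa1a also overlaps Gm20481 on the opposite strand, which was not analysed here. The labels do not state whether strand was used in counting.

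Immediate early genes, which respond within minutes to handling and injury, were measured in the same libraries. Over 24 such genes the summed level was 844, 424, 427 and 480 CPM in TG hearts A, B, C and E and 716, 387, 552 and 559 CPM in NTG hearts A, B, D and E. The groups overlapped, and heart A was the highest in each, whereas heart E was the highest for Hspa1a and Hspa1b. None of the 24 passed in edgeR, DESeq2 or limma-voom with or without sample weights, with 2 at an unadjusted p under 0.05. Without NTG heart D and TG heart A, edgeR called 1 of the 24 lower, Nr4a1 (log2 fold change −2.18, adjusted p = 0.0200). With all hearts the 2 with the smallest p were Ier3 (log2 fold change −0.34, adjusted p = 0.448) and Atf3 (1.16, adjusted p = 0.465). The part of these genes in the Hspa1a and Hspa1b values was not tested.

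HSF1 binds DNA at heat shock elements, in which short GAA units alternate in direction. The promoters of the members that the table of RefSeq promoters on GRCm38.p6 holds were searched for a pair of facing units (GAANNTTC or TTCNNGAA, each its own reverse complement, so that both strands are covered) in the 250 bases before the start. The table matched 6 of the 10 members, with 8 starts: Hspa1a, Hspa1b, Hsph1 and Hspb1 held a pair, and Bag3 and Dnajb1 (2 starts) held none. Hspa8, Hsp90aa1, Hsp90ab1 and Cryab had no entry. Of all 32851 promoters in the table, 12.8% held such a pair. The 4 promoters with a pair, those of the genes with non-overlapping groups that the table holds, are printed 5′ to 3′ with the pair in capitals. They are Hspa1a (chr17:34972157-34972406, minus strand), Hspa1b (chr17:34959239-34959488, minus strand), Hspb1 (chr5:135887669-135887918, plus strand) and Hsph1 from the upstream of its 2 starts (chr5:149636337-149636586, minus strand).
Hspa1a: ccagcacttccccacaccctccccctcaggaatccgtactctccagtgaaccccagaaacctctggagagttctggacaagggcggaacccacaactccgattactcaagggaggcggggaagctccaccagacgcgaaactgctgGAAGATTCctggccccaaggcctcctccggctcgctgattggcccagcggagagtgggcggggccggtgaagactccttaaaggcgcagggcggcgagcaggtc
Hspa1b: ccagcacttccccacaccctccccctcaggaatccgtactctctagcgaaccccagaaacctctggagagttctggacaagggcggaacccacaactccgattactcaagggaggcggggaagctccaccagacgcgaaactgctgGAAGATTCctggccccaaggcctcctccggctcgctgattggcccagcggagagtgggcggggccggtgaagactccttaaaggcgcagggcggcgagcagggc
Hspb1: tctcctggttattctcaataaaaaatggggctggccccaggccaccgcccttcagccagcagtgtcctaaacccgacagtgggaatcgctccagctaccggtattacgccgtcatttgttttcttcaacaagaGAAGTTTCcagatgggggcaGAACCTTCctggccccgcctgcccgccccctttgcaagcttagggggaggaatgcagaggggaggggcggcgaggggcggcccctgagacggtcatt
Hsph1: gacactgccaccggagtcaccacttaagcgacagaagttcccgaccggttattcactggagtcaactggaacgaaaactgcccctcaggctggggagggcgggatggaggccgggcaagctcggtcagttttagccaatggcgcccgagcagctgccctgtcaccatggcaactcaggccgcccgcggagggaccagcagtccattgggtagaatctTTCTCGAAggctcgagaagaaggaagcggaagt
The Hspa1a and Hspa1b promoters differ at 3 of 250 bases and carry the same GAAGATTC, 104 to 97 bases before the start. Hspb1 holds GAAGTTTC (117 to 110 bases before) and GAACCTTC (97 to 90 bases before), and Hsph1 holds TTCTCGAA (33 to 26 bases before). None of the 8 windows held 3 alternating units (0.466% of all promoters did) or TGATGNAA, an element of the ATF4 and CHOP response searched on both strands (3.45% did). Only exact letters were searched, so elements that depart from them were not counted. The window before the later of the 2 Dnajb1 starts lies within the annotated gene. The Hsph1 pair also lies within its gene as annotated in GENCODE M21, which reaches base 149636376, upstream of both starts. A match describes letters in a window and is not evidence of binding, nor is a missing match evidence of no binding.

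Hspa8 (GRCm38 chr9:40800984-40810087, plus strand) encodes the constitutive HSP70 that carries most of the everyday load of folding and uncoats clathrin vesicles. It was at 472, 533, 572 and 594 CPM in TG hearts A, B, C and E and at 466, 604, 499 and 469 CPM in NTG hearts A, B, D and E. The groups overlapped, with the highest value in NTG heart B. The log2 fold change of 0.09 (SE 0.12, edgeR adjusted p = 0.846) has a 95% interval of 0.891 to 1.27 times. Small nucleolar RNA genes lie within its introns, and 3 of them (Snord14c, Snord14d and Snord14e) overlap its annotated exons by 86 to 90 bases each.

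Among the genes whose products work with HSP70, Hsph1 had the largest log2 fold change. Hsph1 (GRCm38 chr5:149614287-149636376, minus strand) encodes HSP105, a nucleotide exchange factor that also helps to pull apart protein aggregates. It was at 82.2, 103, 130 and 121 CPM in TG hearts A, B, C and E and at 55.4, 68.5, 76.1 and 74.5 CPM in NTG hearts A, B, D and E. The groups did not overlap, although TG heart A was only slightly above NTG heart D. With all 8 hearts the log2 fold change of 0.67 (SE 0.15) did not pass (edgeR adjusted p = 0.0817, 95% interval 1.25 to 2.02 times). It passed without TG heart A (0.78, adjusted p = 0.0193), without that heart and NTG heart D (0.84, adjusted p = 0.0200), and in DESeq2 with all hearts (0.66, adjusted p = 0.00302).

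Dnajb1 (GRCm38 chr8:83608193-83612653, plus strand) encodes HSP40, the J protein that starts the ATPase cycle of HSP70. It was at 28.2, 20.1, 31.9 and 39.3 CPM in TG hearts A, B, C and E and at 19.4, 20.2, 21.5 and 25.8 CPM in NTG hearts A, B, D and E. TG heart B lay within the NTG range, and the other 3 TG hearts lay above it. Its log2 fold change came to 0.46 (SE 0.18, edgeR adjusted p = 0.408, 95% interval 1.03 to 1.83 times). The TG hearts took the same order for Dnajb1 as for Hspa1b, with E highest, then C, A and B.

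Bag3 (GRCm38 chr7:128523616-128546981, plus strand) encodes a nucleotide exchange factor that links HSP70 to small heat shock proteins and sends damaged sarcomere proteins to autophagy. Its loss causes cardiomyopathy in people and mice. It was at 169, 229, 228 and 249 CPM in TG hearts A, B, C and E and at 238, 139, 242 and 225 CPM in NTG hearts A, B, D and E. The groups overlapped, and each had 1 heart well below the others, TG A and NTG B. The log2 fold change of 0.05 (SE 0.18, edgeR adjusted p = 0.955) has a 95% interval of 0.781 to 1.38 times and turned negative without NTG heart B (−0.10) or TG heart E (−0.03).

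The HSP90 genes differed between the inducible and the constitutive form. Hsp90aa1 (GRCm38 chr12:110690605-110702728, minus strand) encodes the inducible HSP90 alpha, which folds kinases and steroid receptors. It was at 178, 195, 207 and 218 CPM in TG hearts A, B, C and E and at 115, 154, 120 and 112 CPM in NTG hearts A, B, D and E. Every TG heart was above every NTG heart, and NTG heart B was the nearest. The means were 199.5 ± 16.8 CPM in TG hearts and 125 ± 19.5 CPM in NTG hearts (SD, n = 4 each), with a log2 fold change of 0.68 (SE 0.12, edgeR adjusted p = 0.0223), which is 1.60 times with a 95% interval of 1.33 to 1.92. It also rose without NTG heart D and TG heart A (0.71, adjusted p = 0.0411). The call was lost when any of 6 single hearts was left out, namely TG B (adjusted p = 0.0996), C (0.106) or E (0.101) and NTG A (0.101), D (0.0575) or E (0.0930), with log2 fold changes of 0.61 to 0.67.

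Hsp90ab1 (GRCm38 chr17:45567775-45573271, minus strand) encodes the constitutive HSP90 beta. It was at 1361, 1606, 1691 and 1687 CPM in TG hearts A, B, C and E and at 1437, 1429, 1434 and 1390 CPM in NTG hearts A, B, D and E. TG heart A was below all NTG hearts and the other 3 TG hearts were above them. The NTG hearts lay close together, with a coefficient of variation of 1.56%, against 9.77% in the TG hearts. The log2 fold change came to 0.16 (SE 0.10, edgeR adjusted p = 0.634, 95% interval 0.963 to 1.29 times).

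**Figure D2:**
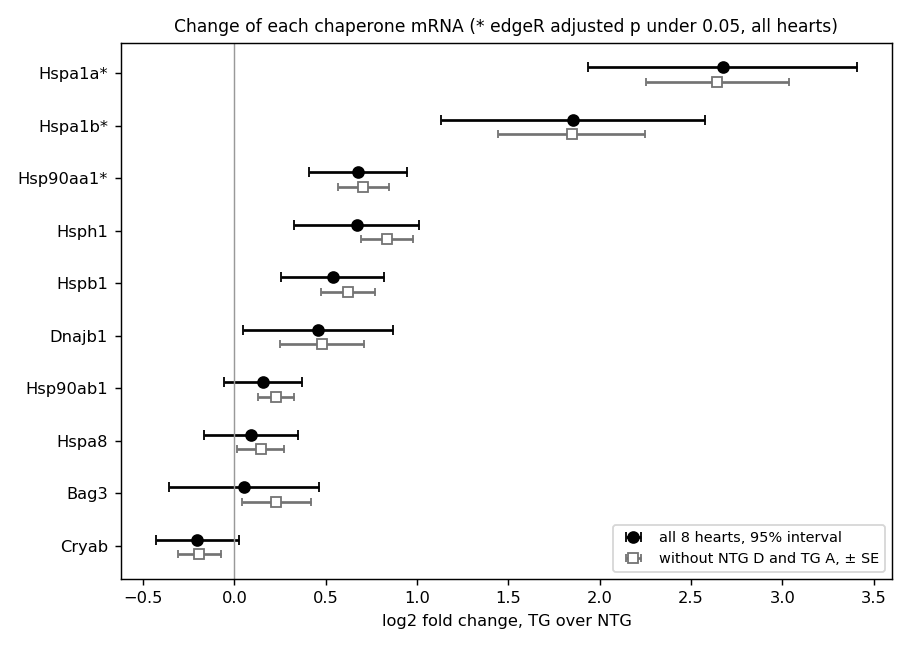
Log2 fold change of each chaperone gene, TG over NTG, with its 95% interval from all 8 hearts (filled circles) and with its SE without NTG heart D and TG heart A (open squares). An asterisk marks an edgeR adjusted p under 0.05 with all hearts: Hspa1a (2.67), Hspa1b (1.85) and Hsp90aa1 (0.68) carry one, and Cryab (−0.20) is the only gene below 0.

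Among the small heat shock proteins, Hspb1 and Cryab did not share a direction. Hspb1 (GRCm38 chr5:135887919-135889563, plus strand) encodes HSP25, the mouse counterpart of human HSP27, which binds actin and unfolded proteins. It was at 79.1, 91.3, 94.6 and 94.5 CPM in TG hearts A, B, C and E and at 70.3, 47.1, 65.4 and 64.8 CPM in NTG hearts A, B, D and E. The groups did not overlap, and NTG heart B was the lowest of the 8. The log2 fold change of 0.54 (SE 0.13) did not pass with all hearts (edgeR adjusted p = 0.0923, 95% interval 1.19 to 1.77 times). It passed without NTG heart B, at a smaller log2 fold change (0.43, adjusted p = 0.0414), and in DESeq2 with all hearts (0.53, adjusted p = 0.00498).

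Cryab (GRCm38 chr9:50751325-50756636, plus strand) encodes alpha B-crystallin, which protects desmin filaments and is mutated in an inherited desmin-related cardiomyopathy. It was at 1624, 1890, 1820 and 1786 CPM in TG hearts A, B, C and E and at 2187, 2269, 1915 and 1823 CPM in NTG hearts A, B, D and E. TG heart B was above NTG heart E, so the groups overlapped. The log2 fold change came to −0.20 (SE 0.10, edgeR adjusted p = 0.539, 95% interval 0.742 to 1.02 times). Summed cardiomyocyte markers, given above, were lower in the TG hearts as well, and their part in this value was not tested. Over 252 bases (17.04% of its exon length) Cryab overlaps Hspb2 on the opposite strand, and Hspb2 stood at 31.0 ± 1.72 CPM in TG hearts and 30.7 ± 3.00 CPM in NTG hearts (SD, n = 4 each).

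Ratios between genes of the same heart do not depend on how libraries are scaled, and 3 were compared. Hspa1a and Hspa1b counts together were 2.44%, 1.05%, 1.88% and 2.77% of the Hspa8 count in TG hearts A, B, C and E, against 0.484%, 0.341%, 0.535% and 0.798% in NTG hearts A, B, D and E. The inducible pair was thus a small fraction of the Hspa8 count in every heart. The mean log2 ratio was −5.71 ± 0.62 in TG hearts and −7.60 ± 0.50 in NTG hearts (SD, n = 4 each), a difference of 1.89, or 3.71 times. The Hsp90aa1 count was 13.1%, 12.2%, 12.2% and 12.9% of the Hsp90ab1 count in TG hearts A, B, C and E, against 7.98%, 10.8%, 8.36% and 8.03% in NTG hearts A, B, D and E. The TG hearts lay within a narrow band, all above NTG heart B, which stood apart from its group. The mean log2 ratio was −2.99 ± 0.05 in TG hearts and −3.52 ± 0.20 in NTG hearts (SD, n = 4 each), a difference of 0.53, or 1.45 times.

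The Hspa1a count was 49.3%, 46.0%, 34.5% and 33.0% of the Hspa1b count in TG hearts A, B, C and E, against 18.3%, 20.0%, 27.0% and 21.98% in NTG hearts A, B, D and E. Hspa1a thus took a larger share of the pair in every TG heart, with a difference of 0.89 in log2 ratio, or 1.85 times, subject to how shared reads were counted. Each of the 3 ratios was higher in 4 of 4 TG hearts than in any NTG heart. The exact two-sided permutation p was 0.0286 for each (also 0.0286 adjusted over the 3), the smallest that 4 against 4 hearts can give. Hspa1a is part of the first and the third ratio, and it is among the deposited genes only through the TG hearts. The p-values of those ratios are therefore not independent support for its rise.

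**Figure D3:**
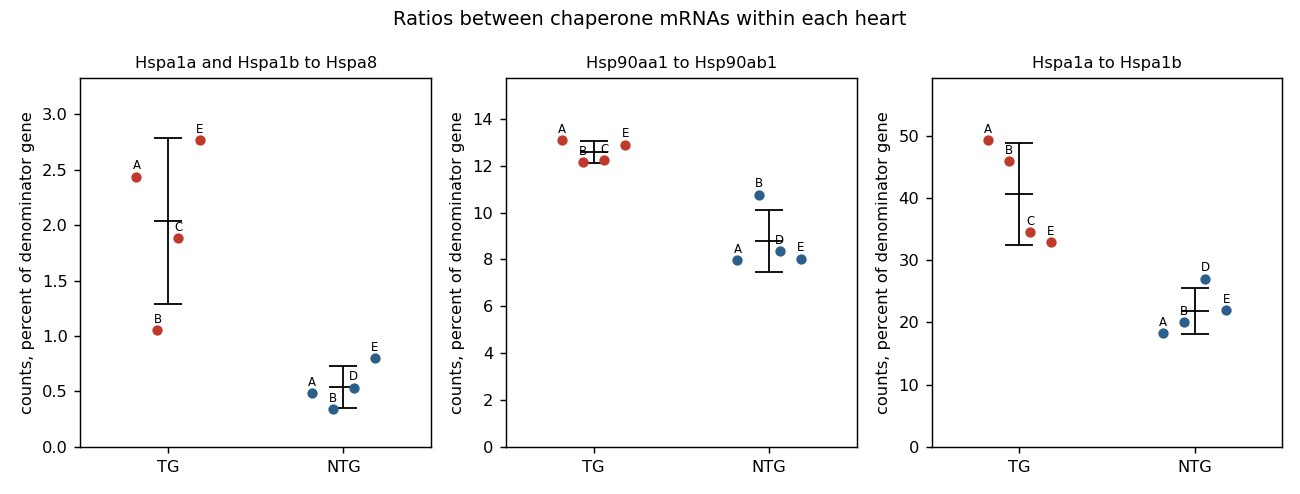
Ratios of counts between chaperone genes in each heart, as a percent of the gene named second (linear axis from 0). Points are hearts with their letters and bars are the mean and SD; in each panel the 4 TG hearts lie above the 4 NTG hearts.

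Per length of transcript the members span a wide range in the adult heart. In CPM per kilobase of exon, Cryab was highest (1204 ± 76.0 CPM per kilobase in TG hearts, 1385 ± 144 in NTG hearts; SD, n = 4 each, as for the genes that follow). Hsp90ab1 came next (529 ± 51.7 in TG, 474 ± 7.40 in NTG hearts), ahead of Hspa8 (126 ± 12.4 in TG, 118 ± 15.1 in NTG hearts). Hspb1 (87.2 ± 7.11 in TG, 60.0 ± 9.85 in NTG hearts) and Bag3 (85.4 ± 13.5 in TG, 82.3 ± 19.0 in NTG hearts) were the only neighbours that changed places, with Hspb1 at rank 4 in TG hearts and rank 5 in NTG hearts. In TG hearts these neighbours lay within an SD of each other. Hsp90aa1 (50.8 ± 4.28 in TG, 31.8 ± 4.96 in NTG hearts), Hsph1 (15.0 ± 2.92 in TG, 9.45 ± 1.30 in NTG hearts) and Dnajb1 (9.33 ± 2.49 in TG, 6.79 ± 0.890 in NTG hearts) followed. Hspa1b (2.85 ± 1.24 in TG, 0.784 ± 0.214 in NTG hearts) and Hspa1a (1.04 ± 0.355 in TG, 0.160 ± 0.0559 in NTG hearts) were last, so the genes with the largest fold changes had the lowest levels. Together the 10 genes held 0.396% to 0.507% of all counts in TG hearts and 0.404% to 0.486% in NTG hearts. Cryab made up 39.1% of the member counts in TG hearts and 45.7% in NTG hearts on average.

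**Figure D4:**
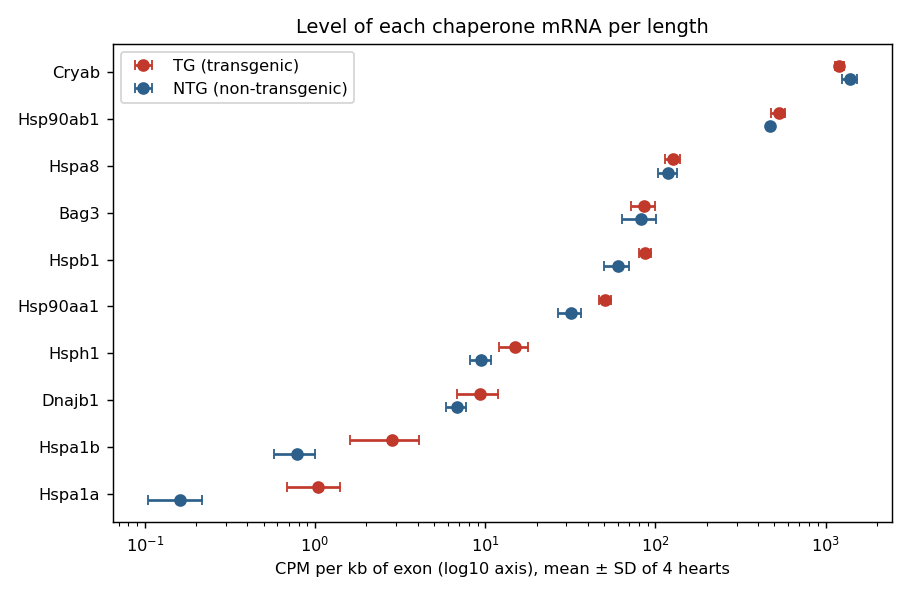
Mean level of each member in CPM per kilobase of exon, on a log axis, in TG and NTG hearts with the SD over 4 hearts each. The order of the genes is the same in both groups apart from Hspb1 and Bag3, and the groups lie farthest apart for the lowest genes, Hspa1a and Hspa1b.

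Hearts of a group also differed among themselves across the members. TG heart E was the highest of its group for 6 of 10 members and TG heart A the lowest for 7. TG heart A also had the highest sum of atrial markers, whose part in this was not tested. In the NTG group heart B was the highest for 3 members and the lowest for 4, and heart D was never the lowest. After the group means were taken off, the genes whose log2 CPM ran most like that of Hspa1a over the 8 hearts, among 12815 genes, were Cyb5r2 (Pearson r = 0.97), Smarca2 (0.96), Ccdc171 (0.95), Zfp704 (0.95) and Mfsd7a (0.95). Hspa1b had an r of 0.88 with it and ranked 36th, Dnajb1 an r of 0.83 and Cryab an r of −0.84. Those most like Hsp90aa1 were Btla (0.998), Gnl3 (0.99), Heatr1 (0.99), Bag5 (0.99) and Rsbn1 (0.99), with Hspa8 at rank 7 (0.98). These values describe 8 libraries that share depth and tissue make-up. Leaving out NTG heart B left the 10 listed genes, picked for their high r, at an r of 0.9385 or more. Among the members, the r of Hspa8 with Hsp90aa1 stayed at 0.98. That of Hspb1 went from −0.55 to 0.80 and that of Bag3 from −0.44 to 0.92, so these values hang on NTG heart B.

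Other genes of the chaperone network were counted over 10 lists of cytosolic chaperones, their partners and heat shock targets, with 84 different tested genes. A few of the targets work outside the cytosol, among them Hspd1 and Hspe1 in mitochondria and Serpinh1 in the endoplasmic reticulum. In edgeR 0 of the 84 rose and 0 fell, with 11 (13.1%) at an unadjusted p under 0.05, against 10.7% of all genes. The log2 fold change was positive for 53 of the 84 (63.1%), against 51.19% of all genes, and its median was 0.05, against 0.01 over all genes. All TG hearts were above all NTG hearts for 6 of the 84 (7.14%, against 4.58% of all genes) and below for 3 (3.57%, against 2.8%).

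Other tools called a few of the 84. DESeq2 called Bag2 higher and Tpm1 and Synpo2 lower, where it called 1.88% of all genes higher and 1.2% lower. With limma-voom 0 of the 84 were called, where 1.02% of all genes rose and 0.242% fell. With sample weights it called 8 of the 84 higher and 1 (Synpo2) lower, where 2.87% of all genes rose and 1.91% fell. Without NTG heart D and TG heart A, edgeR called 1 of the 84, Serpinh1, which encodes the collagen chaperone HSP47 (log2 fold change 0.66, adjusted p = 0.0306, against 0.30 and 0.713 with all hearts).

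Among HSF1 and its regulators 0 of 8 passed in edgeR, DESeq2 or either limma-voom fit, and 0 had an unadjusted p under 0.05. Hsf1 itself, named here after its values were seen, was at 25.8 ± 2.63 CPM in TG hearts and 23.7 ± 4.26 CPM in NTG hearts (log2 fold change 0.12, adjusted p = 0.837). The smallest p belonged to Hsbp1, which encodes a negative regulator of HSF1 (−0.12, adjusted p = 0.689), and Hdac6, which encodes a deacetylase that binds ubiquitin chains (0.14, adjusted p = 0.746). A list of 16 other known targets of the heat shock response, several of which also stand in other lists, had 15 positive log2 fold changes with a median of 0.16, yet 0 passed in edgeR, DESeq2 or limma-voom, with 5 at an unadjusted p under 0.05. With sample weights, limma-voom called Hspd1 and Hspe1 higher, and edgeR called Serpinh1 without NTG heart D and TG heart A. With all hearts the genes with the smallest p were Dnaja4, a J protein gene (0.25, adjusted p = 0.287), and Hspa4l, an HSP110 gene (0.33, adjusted p = 0.340).

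Among the 7 other HSP70 and HSP110 genes 5 were positive (median 0.13), with Hspa4l and Hspa4 (0.23, adjusted p = 0.433) at the smallest p. Among the 12 other cytosolic J proteins 9 were positive (median 0.07), led by Dnaja4 and Dnajc5, which encodes the cysteine string protein of vesicles (0.24, adjusted p = 0.319). The 6 other nucleotide exchange factors included Bag2, a partner of HSP70 that restrains ubiquitination by CHIP, at 46.0 ± 3.31 CPM in TG hearts and 37.4 ± 1.39 CPM in NTG hearts (0.30, edgeR adjusted p = 0.169), and Hspbp1 (0.11, adjusted p = 0.815). Of 18 HSP90 co-chaperones 11 were positive (median 0.02): Stip1, which bridges HSP70 and HSP90, was at 0.26 (adjusted p = 0.363) and Fkbp4, an immunophilin of steroid receptor complexes, at −0.26 (adjusted p = 0.350). In none of these 4 lists did a gene pass in edgeR, with 2, 3, 1 and 2 genes at an unadjusted p under 0.05 in the order given. DESeq2 called only Bag2 and limma-voom 0, while limma-voom with sample weights called Bag2, Dnajc2 and Ahsa2 higher.

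The other small heat shock proteins were mostly negative, with 1 of 6 positive and a median log2 fold change of −0.11. Hspb6, which encodes a relaxant small heat shock protein of muscle, had −0.16 (adjusted p = 0.664), and Hspb7, a cardiac filamin-binding member, had −0.10 (adjusted p = 0.804). Of the TRiC chaperonin, which folds actin and tubulin, 7 of 8 subunits were positive (median 0.11), among them Cct3 (0.20, adjusted p = 0.552) and Cct5 (0.19, adjusted p = 0.552). Prefoldin, which delivers actin and tubulin to TRiC, had 1 of 6 subunits positive (median −0.06), with Pfdn1 at −0.17 (adjusted p = 0.747) and Pfdn5 at −0.15 (adjusted p = 0.788). In these 3 lists 0 genes passed in edgeR, DESeq2 or limma-voom and 0 had an unadjusted p under 0.05 in edgeR, while limma-voom with sample weights called Cct2, Cct3 and Cct5 higher.

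The list of BAG3-dependent autophagy partners and clients held 0 of 9 calls in edgeR and 4 positive values (median −0.00), with 2 genes at an unadjusted p under 0.05. Tpm1, the sarcomere tropomyosin gene, averaged 7648 ± 401 CPM in TG hearts and 10240 ± 1480 CPM in NTG hearts (SD, n = 4 each; log2 fold change −0.42, edgeR adjusted p = 0.172). Synpo2, whose protein helps BAG3 form autophagosomes, averaged 144 ± 6.83 CPM in TG hearts and 177 ± 14.02 CPM in NTG hearts (−0.30, edgeR adjusted p = 0.213). All TG hearts were below all NTG hearts for both, and DESeq2 called both lower, limma-voom neither and limma-voom with sample weights Synpo2. With library totals in place of TMM, edgeR called Tpm1 (−0.33, adjusted p = 0.0303). The summed cardiomyocyte markers were lower in the same hearts, and their part in these values was not tested.

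Chaperones of other compartments give a comparison outside the cytosol. Of 9 mitochondrial chaperone genes Hspa9, which encodes the mitochondrial HSP70 mortalin, rose to 1331 ± 76.1 CPM in TG hearts, against 933 ± 79.0 CPM in NTG hearts (SD, n = 4 each; log2 fold change 0.51, SE 0.10, edgeR adjusted p = 0.0294). Its call was lost without any of TG hearts B (adjusted p = 0.164), C (0.142) or E (0.121) and NTG hearts A (0.104), D (0.0510) or E (0.0948). The other 8 did not pass in edgeR, DESeq2 or limma-voom, while limma-voom with sample weights called 3 of them (Hspd1, Hspe1 and Grpel2) higher, and the list's median was 0.19. Of 14 endoplasmic reticulum chaperone genes 0 passed in edgeR, with 1 at an unadjusted p under 0.05 and a median of −0.07. That gene was Dnajb9, the J protein ERdj4 (0.35, adjusted p = 0.0771; 0.38 and 0.0345 without NTG heart B), which DESeq2 and limma-voom with sample weights called higher and limma-voom without them did not, while Hspa5, which encodes BiP, had −0.24 (adjusted p = 0.543).

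**Figure D5:**
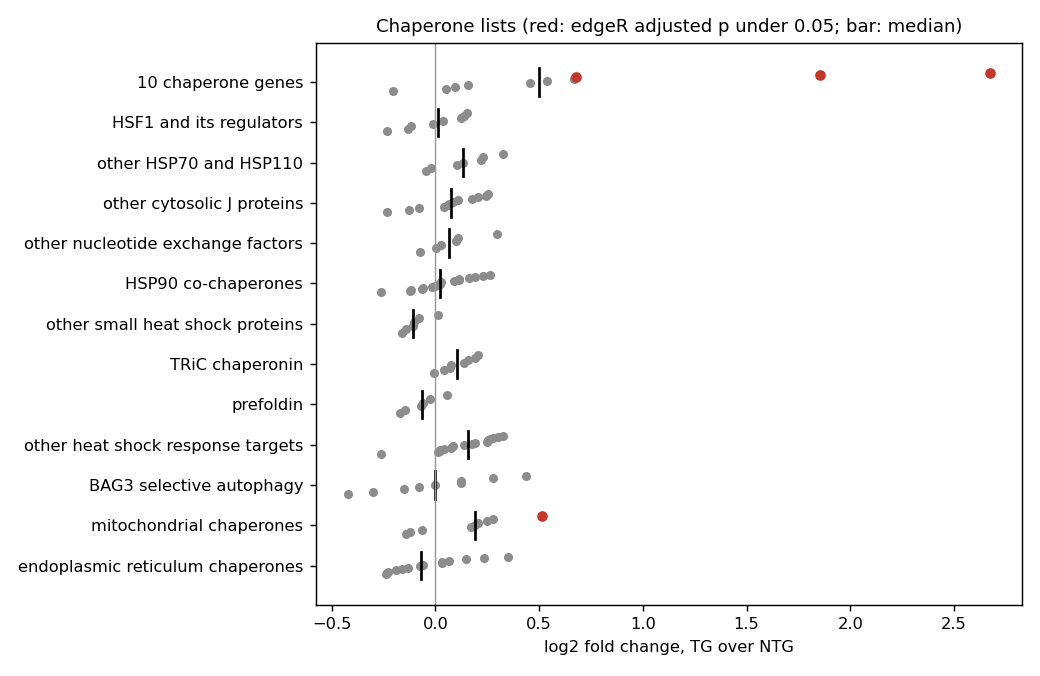
Log2 fold changes, TG over NTG, of the genes in each chaperone list, with a line at the list's median. The 10 members spread from −0.20 to 2.67, whereas every gene of the 10 lists of cytosolic chaperones, partners and heat shock targets lies between −0.42 and 0.44.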

How the data were processed

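RNA sequencing of 8 mouse hearts was analysed. Per the labels' protocols, the hearts were homogenized in Trizol and a TruSeq kit served for the libraries. TopHat2 and cutadapt 1.15 are the tools, and GRCm38 (mm10) the build, per the submitters' processing notes. The authors deposited whole-number counts per Ensembl gene, not normalized. Not given in the sources used here were the read counter, its annotation, its handling of reads that match several genes and the use of strand. The second-highest CPM of every one of the 13227 genes was at least 1.0033, so lower genes were not analysed here. Depth was 44584359 to 55769859 counts a library.

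Symbols and coordinates came from GENCODE M21 (7 identifiers had no entry). The test was run with edgeR 4.0.16 (R 4.3.3): low counts were filtered with filterByExpr by group (13226 genes kept, all 10 members among them), libraries were scaled by TMM, and groups were compared by the quasi-likelihood F test without a block, two-sided, with Benjamini-Hochberg adjustment over all tested genes and a threshold of 0.05. Every adjusted p is from edgeR unless another tool is named. The SE was worked back as log2 fold change over the square root of F, without its sign. Ratios used a prior count of 0.5, and likeness to Hspa1a and Hsp90aa1 used log2 CPM with a prior count of 2. For ratios, an exact permutation test used all 70 arrangements of the hearts. Poisson intervals are at 95% and cover counting error only. On simulated counts the edgeR step recovered 46% of genes changed 1.5 times, 76% at 2 times, 98% at 4 times and 100% at 8 times. The changed genes, 50 per size of change, were drawn only from genes averaging more than 50 counts over the 8 libraries. In the NTG hearts Hspa1a had 13 to 35 counts, below that level.

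The members and gene lists were chosen with earlier results of these data known. The genes named are the members, Fastkd1, the calls or else the 2 smallest p of each list, and the 5 genes most like Hspa1a and Hsp90aa1. Genes named only for a call by another tool or alternative, and Hsf1, Myl4 and Hspb2, were chosen after their values were seen. Alternatives were DESeq2 1.42.0, limma-voom with limma 3.58.1 (also with sample weights), other scalings, filters and thresholds, single hearts left out, NTG D and TG A left out together, and the title letter as a block. Libraries were compared in pairs within each group, and none of these pairs agreed within sampling noise.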

Additional observations from a re-analysis of the deposited data

Results flagged for a closer look

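In each group of 4, the highest or lowest heart was compared with the rest of its group for 28 sets of values (the members, Fastkd1 and the ratios, in each group), and in 4 of these a heart stood far from the other 3. Chance alone flags about 5% of such groups. Bag3 was at 139 CPM in NTG heart B, where the other 3 NTG hearts had 225 to 242 CPM. In the same heart the log2 ratio of Hsp90aa1 to Hsp90ab1 was −3.22, nearer to the TG hearts than to its own group. Hsp90ab1 was at 1390 CPM in NTG heart E, below the others by only a small margin, since those 3 lay at 1429 to 1437 CPM. Fastkd1 was at 192 CPM in NTG heart D, where the other NTG hearts had 26.3 to 33.8 CPM.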

How the results depend on the processing

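Hspa1a rose in all 17 alternatives that could test it (log2 fold change 2.21 to 2.86, highest adjusted p 0.0137), Hspa1b in 10 of 17 (1.43 to 2.07, highest 0.104) and Hsp90aa1 in 11 of 18 (0.61 to 0.82, highest 0.153). Hsph1 passed in 4 of 18 and Hspb1 in 3 of 18. Members that rose numbered 5 in DESeq2, 2 in limma-voom and 4 in limma-voom with sample weights. They numbered 1 with at least 10 CPM in 4 libraries (which removes Hspa1a and Hspa1b), 1 at an adjusted p under 0.01 and 5 under 0.10. With single hearts left out they numbered 1 to 4, with 4 without TG heart A and 1 without TG C, NTG A or NTG D. Of all genes tested in each setting, 97 rose with at least 10 CPM in 4 libraries, 103 at an adjusted p under 0.01 and 178 under 0.10. Without single hearts 103 to 168 rose. Of all genes, DESeq2 called 249 higher and 159 lower, limma-voom 135 and 32, and limma-voom with sample weights 380 and 252, against 133 and 32 in edgeR. Genes that fell numbered 106 without NTG D and TG A, 9 and 69 at adjusted p under 0.01 and 0.10, and, without single hearts, 9 (TG B), 10 (NTG A), 14 (TG C), 50 (NTG B) and 72 (NTG D). Bag3 reversed to −0.10 without NTG heart B and to −0.03 without TG heart E, and was at up to 0.16 without other single hearts. The cause of these changes was not tested.

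The letters A, B and E occur in both groups, and the labels state no pairing. Deviations from the group mean had correlations of 0.297 (A), −0.085 (B) and 0.360 (E) between hearts of the same letter. TG hearts A and E each ran most like the NTG heart of their own letter, and TG heart B did not. So few letters cannot decide whether the hearts are paired. With the replicate block, 103 genes rose, 21 fell and 2 members rose, Hspa1a and Hspa1b, while Hsp90aa1 lost its call (0.65, adjusted p = 0.153), as did Hspa9 (0.46, 0.237). Nr4a1 of the immediate early genes (−1.37, adjusted p = 0.0266), Acta2 (0.86, 0.0391) and the atrial marker Sln (6.06, 0.0266) passed under the block.

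Without single hearts the log2 differences of the ratios were 1.69 to 2.18 for the Hspa1 pair to Hspa8, 0.49 to 0.63 for Hsp90aa1 to Hsp90ab1 and 0.79 to 0.9983 for Hspa1a to Hspa1b. Without NTG D and TG A they were 1.79, 0.49 and 0.90, where 3 against 3 hearts cannot give an exact p below 0.10. With the whole 300-base window, 15.1% of promoters held a facing pair, 0.603% alternating units and 3.97% TGATGNAA. Depth limits Hspa1a most, at 13 to 35 counts in NTG hearts.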

Other observations

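Markers of other cell types that a heart sample holds were summed per heart beside the chaperones. Endothelial genes (6) came to 710 to 738 CPM in TG hearts and 736 to 812 CPM in NTG hearts, and macrophage genes (6) to 131 to 169 CPM in TG hearts and 129 to 185 CPM in NTG hearts. Fibroblast genes (7) came to 1217 to 1703 CPM in TG hearts and 1264 to 1765 CPM in NTG hearts. Smooth muscle and pericyte genes (5) came to 762 to 1012 CPM in TG hearts and 624 to 1038 CPM in NTG hearts. Among them Acta2, which encodes smooth muscle actin and is also made by stressed cardiomyocytes, averaged 267 ± 75.4 CPM in TG hearts and 131 ± 30.5 CPM in NTG hearts (SD, n = 4 each; log2 fold change 1.03, edgeR adjusted p = 0.0505). Erythroid genes (4) came to 299 to 416 CPM in TG hearts and 356 to 803 CPM in NTG hearts, with 4 of 4 log2 fold changes negative. Sums of skeletal muscle genes (2) were 1452 to 2308 CPM in TG hearts and 1728 to 2629 CPM in NTG hearts, and adipocyte genes (4) came to 2.03 to 13.3 CPM in TG hearts and 0.761 to 27.5 CPM in NTG hearts. The groups overlapped in all 7 sums, and edgeR called 0 genes of these lists or of the 9 atrial markers, with 6 at an unadjusted p under 0.05. DESeq2 called Acta2 higher and Hba-a1 lower, and limma-voom with and without sample weights called Acta2 higher. In edgeR, Acta2 passed without NTG heart B (1.19, adjusted p = 0.0273) or TG heart A (1.105, 0.0458) and Hba-a1 without NTG heart E (−0.87, 0.0185). With all hearts, edgeR also called Acta2 higher with library totals in place of TMM (1.118, adjusted p = 0.0441). It did so too with at least 10 CPM in 4 libraries (1.015, adjusted p = 0.0444).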
